A study of Mus musculus with 32 samples.

Results

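The response of CCL206 fibroblasts to osteoglycin (OGN) was analyzed as the comparison of 4 OGN-treated with 4 vehicle-treated libraries of these cells. These 8 libraries were chosen by their labels from 32 in the series, and 11685 of the 11818 genes in the count table had enough counts to be tested. CCL206 is a mouse lung fibroblast line, and its proliferation had been blocked with mitomycin C (10 µg/mL). In each culture 300000 fibroblasts were mixed with as many Epcam+ cells, freshly isolated from the lung of 1 mouse aged 8 to 14 weeks and depleted of CD31+ and CD45+ cells, and grown in Matrigel as an alveolar organoid model. Cultures received vehicle or recombinant human OGN (10 µg/mL) for 72 h. They were then digested with dispase and trypsin, and the cells were separated with Epcam (CD326) microbeads into an Epcam+ fraction and the CCL206 fraction described here. Each of the 4 mice gave 1 vehicle-treated and 1 OGN-treated culture, so libraries are paired by mouse, numbered 1 to 4. All fibroblasts came from a single line, so the 4 replicates differ in the epithelial donor and the culture and not in the fibroblast donor.

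OGN, also called osteoglycin or mimecan, is a small leucine-rich proteoglycan of the extracellular matrix, a family to which decorin and lumican also belong. Lung fibroblasts lie next to alveolar type 2 (AT2) cells, the epithelial progenitors of the alveolus, and supply them with matrix and with growth factors such as FGF7, FGF10 and HGF. Fibroblasts are also sentinel cells, which answer microbial products and cytokines through NF-kB by secreting chemokines and acute phase proteins.

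The CCL206 libraries held 7148561 to 10496280 counts with vehicle and 4560414 to 16103497 with OGN. Of the fibroblast markers, 9 of 10 were in the table and their summed level was 11569 to 12907 CPM (counts scaled to the same library total) with vehicle and 12071 to 13026 with OGN. No endothelial marker of 10 and 2 leukocyte markers of 12 (Cd68 and Cd74) were in the table, and genes without a count in even 1 of the 32 libraries are absent from it. All 15 epithelial markers were listed, and their summed level in the CCL206 fraction was 379 to 977 CPM with vehicle and 649 to 1225 CPM with OGN, against 9589.7 to 10161 CPM in the vehicle-treated Epcam+ fraction. Epithelial transcripts were thus present in the CCL206 fraction of both groups. On the first principal component of the 8 libraries, which held 44.1% of the variance, vehicle lay between -14.7 and -8.31 and OGN between 8.73 and 17.4.

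Of 11685 genes, 761 were higher and 609 lower with OGN at an adjusted p under 0.05, which is 6.51% and 5.21% of the genes tested and 11.7% together. The model held mouse and treatment, and the test was edgeR's quasi-likelihood test with Benjamini-Hochberg adjustment over all genes. Genes past that threshold are called differentially expressed here, and changes are log2 fold changes ± standard error, OGN against vehicle. The median absolute change was 0.47 over the differentially expressed genes and 0.15 over all genes. More than 2-fold changes were found for 111 of the higher and 49 of the lower genes. In 1344 of the 1370 genes the direction was the same in all 4 mice. Leaving out mouse 2 or mouse 4 gave 815 and 724 differentially expressed genes. The 4 OGN libraries lay entirely above the 4 vehicle libraries for 1022 genes (8.75%) and entirely below for 890 (7.62%). For genes picked by the test, such a separation is no separate evidence, since it rests on the same libraries. The plot of all genes shows the largest rises among secreted inflammatory proteins, while the major matrix transcripts Col1a2 (-0.02) and Fn1 (-0.04) were not differentially expressed.

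**Figure D1:**
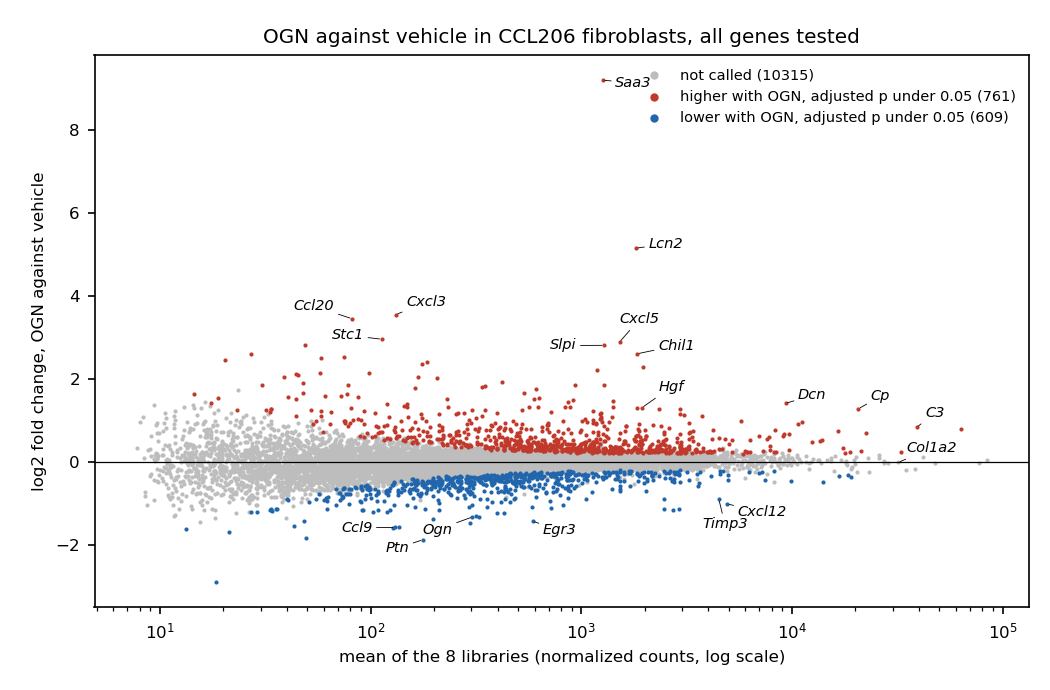
Mean level of each gene over the 8 libraries (x axis, normalized counts, log scale) against its log2 fold change with OGN (y axis), for the 11685 genes tested in CCL206 fibroblasts. Red points are the 761 higher and blue points the 609 lower genes at an adjusted p under 0.05, grey points are the other genes, and Saa3 and Lcn2 stand highest.

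Acute phase proteins and other inflammatory effectors included the genes with the largest rises, Saa3 and Lcn2. The list held 33 genes, of which 19 were in the table, and here as in the lists that follow only members in the table could be tested. Of these 19, 10 rose and 3 fell (52.6% and 15.8%). Over all genes tested 6.51% rose and 5.21% fell, which is the reference for the share of every list below. The median change of the 19 members was 0.31 against -0.007 over all genes. Lcn2 encodes lipocalin 2, which binds bacterial siderophores and so withholds iron. Its level in mice 1 to 4 was 129, 75.7, 96.9 and 95.0 normalized counts with vehicle and 3939, 3539, 3591 and 3077 with OGN. The groups were far apart, and the change was 5.15 ± 0.10 (adjusted p = 5.7e-11). Saa3, an acute phase serum amyloid A made outside the liver, was nearly silent with vehicle (1, 1, 3 and 12 counts as deposited) and had 1433, 3230, 3943 and 2145 counts with OGN. The ratio of the normalized sums was 575 (95% interval 359 to 988, exact, for counting error only), and the fitted change was 9.20 ± 0.22 (adjusted p = 3.4e-10). Slpi, an inhibitor of neutrophil elastase that is not a member of the list, had 257, 325, 346 and 358 normalized counts with vehicle and 2189, 2024, 2429 and 2317 with OGN. This was a change of 2.81 ± 0.08 (adjusted p = 2.5e-09), with little spread within a group.

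Both secreted and membrane-bound mediators were among these genes. Il33, an alarmin of the interleukin 1 family, had 660.2, 596, 479 and 493 normalized counts with vehicle and 2237, 1974, 1743 and 2061 with OGN, and rose by 1.85 ± 0.07 (adjusted p = 2.8e-08). Ptges, the enzyme that completes prostaglandin E2 synthesis, rose by 1.84 ± 0.07 (adjusted p = 1.9e-08) without overlap of the groups. Ptgs2 (cyclooxygenase 2), which acts before it, rose by 1.28 ± 0.12 (adjusted p = 4.0e-05), but its groups overlapped. Chil1, a chitinase-like lectin, rose by 2.60 ± 0.11 (adjusted p = 3.6e-08). Steap4, a metalloreductase, rose by 2.35 ± 0.15 (adjusted p = 1.3e-06), and Hp (haptoglobin), which binds free hemoglobin, rose by 2.29 ± 0.13 (adjusted p = 4.7e-07). Slc39a14 (0.33), a zinc and iron importer, and Lbp (0.29), which presents lipopolysaccharide to CD14, rose less. The members that fell were the adhesion molecule Vcam1 (-0.58), the macrophage growth factor Csf1 (-0.53) and Tnfsf9 (-0.58), the ligand of the receptor Tnfrsf9. Tnfrsf9 itself, chosen after its values were seen, rose by 1.11. Hp was 12.1 times and Chil1 3.48 times as high in the vehicle-treated Epcam+ fraction as in the CCL206 fraction (mean CPM); the part of residual epithelial RNA in their changes was not tested.

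**Figure D2:**
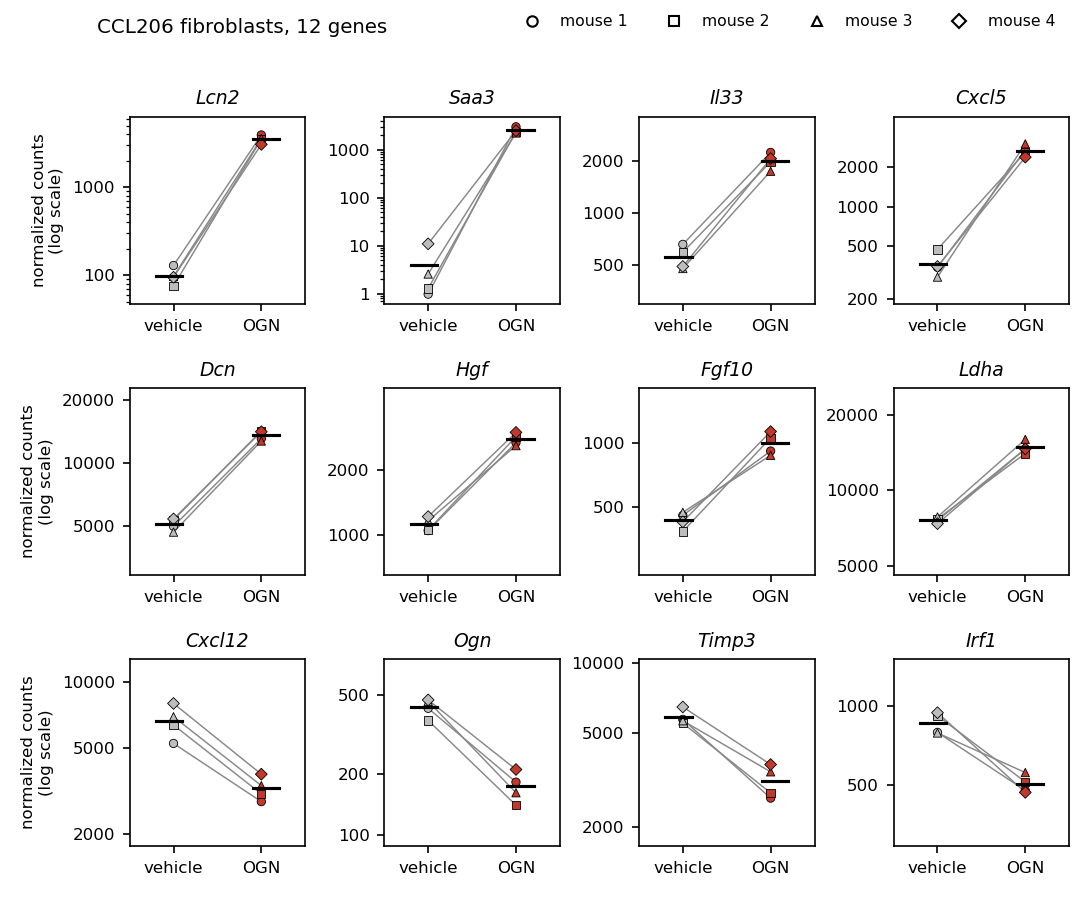
Normalized counts (y axes, log scale) of 12 genes in the CCL206 libraries of 4 mice with vehicle (grey) and OGN (red); lines join the cultures of 1 mouse and black bars are group means. In each panel the 4 OGN values lie outside the range of the 4 vehicle values.

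Promoters of the acute phase genes are shown for the C/EBP motif, since C/EBP factors and NF-kB are known to drive this class of genes. Sequences are from RefSeq (GRCm38.p6), and 14 of the 19 members had an entry. The letters TTGCNNAA, read on both strands in the 250 bases before the start site, were found in 5 of 14 promoters of the list (35.7%), against 819 of 9107 genes tested with an entry (8.99%). The 5 carriers (Lcn2, Saa3, Il33, Ptgs2 and Steap4) rose. For NF-kB, the letters GGGNNNTTCC were in 5 of the 14 (35.7%, against 6.11% of genes tested with an entry). Of the 8 differentially expressed members with an entry, 2 held them (25.0%). The spelling GGGANNNTCC was in 1 of 14 (7.14%, against 5.35%). The windows of Lcn2 (chr2:32387922-32387981, minus strand) and Saa3 (chr7:46715742-46715801, minus strand) are given with the C/EBP motif in capitals. A match describes the letters only.
Lcn2: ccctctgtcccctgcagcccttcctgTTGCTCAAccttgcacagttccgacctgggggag
Saa3: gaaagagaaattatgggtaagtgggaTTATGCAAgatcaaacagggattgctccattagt

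Receptors and signal carriers upstream of NF-kB rose in part. Of 20 components of Toll-like receptor and interleukin 1 signalling, 5 rose (25%) and none fell by edgeR, and the median change was 0.09. Cd14, the co-receptor for lipopolysaccharide, had 255, 327, 274 and 254 normalized counts with vehicle and 986, 794, 1133 and 851 with OGN, a rise of 1.76 ± 0.12 (adjusted p = 1.5e-06). Tlr2 rose by 1.66 ± 0.25 (adjusted p = 9.2e-04), Il1rap, the shared subunit of the receptors for interleukins 1 and 33, by 1.35 ± 0.15 (adjusted p = 1.2e-04), and Tlr4 by 0.43 ± 0.11 (adjusted p = 0.025). The adaptor Myd88 rose by 0.36 ± 0.09 (adjusted p = 0.021). Without mouse 2 or mouse 4, 3 of the 20 rose. Cd14 was 8.65 times as high in the vehicle-treated Epcam+ fraction as in the CCL206 fraction, whereas Tlr4 stood at 0.479 times the fibroblast level there. Among 23 NF-kB subunits and inhibitors, 3 rose (13.0%) and 3 fell (13.0%), with a median change of 0.06. The precursor subunit Nfkb1 (0.55), the kinase Ikbke (0.97) and the A20-binding inhibitor Tnip3 (2.03) rose. The inhibitor Nfkbie (-0.68), the ubiquitin ligase Birc2 (-0.58) and the deubiquitinase Cyld (-0.51) fell. Tnip3 was 9.39 times as high in the vehicle-treated Epcam+ fraction. The part of residual epithelial RNA in the rises of Cd14 and Tnip3 was not tested.

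Chemokines moved in both directions. Of 14 ligands tested, 7 rose (50%) and 3 fell (21.4%). Cxcl1, Cxcl3 and Cxcl5, which recruit neutrophils through CXCR2, were among the rising ligands. Cxcl5 had 346, 474, 292 and 351 normalized counts with vehicle and 2696, 2596, 3005 and 2381 with OGN and rose by 2.89 ± 0.12 (adjusted p = 4.1e-08). Cxcl3 had 37.2, 10.3, 21.4 and 15.5 normalized counts with vehicle and 299, 191, 297 and 183 with OGN and rose by 3.55 ± 0.20 (adjusted p = 4.9e-07). Cxcl1 rose by 1.04 ± 0.10 (adjusted p = 4.8e-05), and in it the groups overlapped although each mouse rose. Ccl20, the ligand of CCR6, had 15.7, 23.1, 10.3 and 7.31 normalized counts with vehicle and 185, 143, 169 and 97.6 with OGN, a rise of 3.45 ± 0.26 (adjusted p = 4.1e-06). Cxcl16 (0.98), Cxcl15 (0.58) and the monocyte attractant Ccl2 (0.36) rose less, each with overlapping groups. Ccl7 (0.25, adjusted p = 0.076), Ccl8 (0.43, 0.08), Cxcl17 (0.56, 0.38) and Ccl25 (-0.10, 0.83) did not pass the test.

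The falling chemokines were of other kinds. Cxcl12, which retains CXCR4-bearing cells in tissue and has the smallest p of all lower genes, had 5220.1, 6347, 6929 and 7974 normalized counts with vehicle and 2818, 3059, 3339 and 3769.8 with OGN, a change of -1.02 ± 0.06 (adjusted p = 5.6e-07). Cx3cl1 (fractalkine), a membrane-anchored ligand, had 3737, 3814, 2946 and 2992 normalized counts with vehicle and 1979, 1768, 1077 and 1402 with OGN and fell by 1.15 ± 0.08 (adjusted p = 3.1e-06). Ccl9 fell by 1.59 ± 0.17 (adjusted p = 7.5e-05). In all 3 every OGN library lay below every vehicle library. The vehicle-treated Epcam+ fraction held 0.187 times the CCL206 level of Cxcl12 but 15.0 times that of Ccl20, 9.24 times that of Cxcl16 and 8.66 times that of Cxcl3. The part of residual epithelial RNA in these rises and in that of Cxcl15 was not tested.

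The promoters of Cxcl1 (chr5:90891140-90891199, plus strand) and Cxcl3 (chr5:90786014-90786073, plus strand) are shown because NF-kB sites in them are well known. The letters GGGNNNTTCC (both strands, 250 bases before the start site) were found in 4 of 9 promoters of the list (44.4%), against 556 of 9107 genes tested with an entry (6.11%). With the spelling GGGANNNTCC the shares were 2 of 9 (22.2%) and 487 of 9107 (5.35%). Of the 4 carriers of the first spelling, Cxcl1, Cxcl3 and Ccl20 rose and Ccl9 fell. Capitals mark every match, and overlapping matches run together.
Cxcl1: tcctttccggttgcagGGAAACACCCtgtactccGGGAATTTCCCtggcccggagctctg
Cxcl3: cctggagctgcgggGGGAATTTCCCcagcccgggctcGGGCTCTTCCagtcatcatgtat

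Complement transcripts rose in part. Of 12 members, 4 rose (33.3%) and 1 fell (8.33%). C3, the central component, had 27059.5, 26762, 28271 and 30624 normalized counts with vehicle and 51724, 52886, 46023 and 49672 with OGN, a rise of 0.83 ± 0.06 (adjusted p = 3.6e-06). The classical pathway proteases C1s1 (0.54) and C1ra (0.43) rose together with their inhibitor Serping1 (0.90). Masp1 of the lectin pathway fell by 0.25 ± 0.06 (adjusted p = 0.023). The vehicle-treated Epcam+ fraction held 0.237 times the CCL206 level of C3.

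Genes of the interferon response and of MHC class I presentation went the other way. Of 31 members none rose and 11 fell (35.5%), with a median change of -0.40 and 25 members below 0. Irf1, a transcription factor induced by interferon, had 791, 915, 787 and 939.5 normalized counts with vehicle and 475, 512, 556 and 467 with OGN, a change of -0.77 ± 0.09 (adjusted p = 1.4e-04). Ddx58 (RIG-I), a sensor of viral RNA, fell by 0.68 ± 0.08 (adjusted p = 1.1e-04). The peptide transporters Tap1 (-0.55) and Tap2 (-0.58) and the immunoproteasome subunit Psmb9 (-0.77) fell together. Ifit2 (-0.66), Oasl2 (-1.16), Irgm1 (-0.54), Gbp7 (-0.95) and Trim30a (-0.46) fell as well. In none of the 11, which were picked by the test on the same libraries, did the groups overlap. Over all 11685 genes the OGN libraries lay entirely below for 7.62%. Without mouse 3, 7 members fell, and without mouse 4, 6 fell.

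Irgm1 and Gbp7 carry the interferon-stimulated response element (ISRE) close to their start sites. The letters GAAANNGAAA (both strands, 250 bases before the start site) were found in 10 of 26 promoters of the list (38.5%), against 278 of 9107 genes tested with an entry (3.05%). Among the members that fell, 3 of 9 with an entry held them. The windows are chr11:48871421-48871472, minus strand for Irgm1 and chr3:142530258-142530317, plus strand for Gbp7.
Irgm1: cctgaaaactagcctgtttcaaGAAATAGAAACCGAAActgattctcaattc
Gbp7: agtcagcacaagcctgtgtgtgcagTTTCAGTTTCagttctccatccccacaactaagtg

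Growth factors for epithelial cells were tested for 22 members, of which 6 rose (27.3%) and 3 fell (13.6%). Hgf, the ligand of MET and a mitogen of AT2 cells, had 1047, 1053, 1162 and 1215 normalized counts with vehicle and 2660.1, 2833, 2577 and 2964 with OGN, a rise of 1.30 ± 0.07 (adjusted p = 2.2e-07). Fgf7 (keratinocyte growth factor) had 743, 797, 714 and 785 normalized counts with vehicle and 1672, 1534, 1668 and 2001 with OGN, a rise of 1.17 ± 0.07 (adjusted p = 1.2e-06). Fgf10, its relative that binds the same epithelial receptor, had 456, 384, 472 and 426 normalized counts with vehicle and 915, 1054, 874 and 1129 with OGN, a rise of 1.19 ± 0.10 (adjusted p = 1.3e-05). In all 3 the lowest OGN library lay above the highest vehicle library. Rspo3, which amplifies Wnt signals, rose by 1.17 ± 0.18 (adjusted p = 9.7e-04), and Vegfa by 0.52 ± 0.09 (adjusted p = 0.0021). Wnt7b rose by 1.25 ± 0.35 (adjusted p = 0.039) with overlapping groups, and was 46.7 times as high in the vehicle-treated Epcam+ fraction. Its Epcam+ level was scaled by the level of the median epithelial marker in CCL206 relative to Epcam+ cells of the same culture. That came to 214% to 562% of its CCL206 level with vehicle and 177% to 267% with OGN. The part of residual epithelial RNA in its rise was not tested.

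Among ligands of the EGF receptor family, Hbegf fell by 1.05 ± 0.14 (adjusted p = 3.9e-04), with 1843, 1707, 492 and 532 normalized counts with vehicle and 648, 682, 281 and 385 with OGN. The ErbB ligand Nrg1 (-0.37) and the stem cell factor Kitl (-0.27) fell, while Areg (0.40, adjusted p = 0.14), Ereg (0.30, 0.17), Btc (0.35, 0.34) and Tgfa (0.04, 0.89) did not pass the test. Without mouse 1, Areg (0.58, adjusted p = 0.035) and Ereg (0.43, adjusted p = 0.048) passed it. Fgf2 had 499, 495, 417 and 443 normalized counts with vehicle and 458, 533, 454 and 519.6 with OGN, and its change was 0.09 ± 0.08 (adjusted p = 0.55). Wnt5a was at -0.17 ± 0.07 (adjusted p = 0.14). Fgf1 (-0.67), Wnt4 (1.07), Wnt9a (-0.31), Rspo2 (0.08), Vegfb (0.02), Vegfc (-0.21) and Vegfd (-0.27) did not pass it either, except Fgf1 without mouse 3 (-1.17, adjusted p = 0.018). Ptn (pleiotrophin), a heparin-binding growth factor outside the list, was among the most strongly lowered genes, with 211, 298, 275 and 331 normalized counts with vehicle and 50.5, 69.4, 106 and 73.2 with OGN and a change of -1.89 ± 0.16 (adjusted p = 1.2e-05).

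Receptors and regulators of Wnt, TGFb and IGF signals moved in part. Of 39 TGFb and BMP genes, 5 rose and 4 fell (12.8% and 10.3%), and 2 fell without mouse 2, 3 or 4. Tgfb1 (0.93) and its receptor Tgfbr1 (0.63) rose, and the signal carrier Smad3 (-0.34) and the activin subunit Inhba (-0.55) fell. Of 29 Wnt receptors and regulators, 2 rose (1 without mouse 4), a share of 6.9% that was close to the 6.51% of all genes. A further 5 fell (2 without mouse 2 or mouse 4), which is 17.2% against 5.21% of all genes. Among these 5 were Dkk3 (-0.89), a secreted Wnt modulator, and Lgr6 (-1.17), a receptor for R-spondins. Of 11 IGF genes, Stc1 alone rose in this comparison, with 27.4, 27.0, 15.4 and 28.3 normalized counts with vehicle and 309, 238, 97.7 and 158 with OGN and a change of 2.95 ± 0.21 (adjusted p = 2.8e-06). Stc1 (stanniocalcin 1) inhibits the protease Pappa, which fell by 0.65 ± 0.19 (adjusted p = 0.047). Irs1 (-0.40) and Igf1r (-0.27) fell, so that 9.09% of the IGF genes rose and 27.3% fell. Without mouse 2, 3 or 4, 1 of these 3 lower IGF genes passed the test.

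The small leucine-rich proteoglycans, the family of OGN, were divided. Dcn (decorin), which binds collagen fibrils and TGFb, had 4995, 5353, 4687 and 5415 normalized counts with vehicle and 13069, 14222, 12728 and 14091 with OGN, a rise of 1.40 ± 0.05 (adjusted p = 2.2e-08). Lum (lumican) rose by 0.94 ± 0.08 (adjusted p = 1.5e-05). The endogenous mouse Ogn transcript had 428, 372, 464 and 472 normalized counts with vehicle and 183, 140.3, 162 and 212 with OGN, a change of -1.34 ± 0.10 (adjusted p = 5.0e-06). Prelp fell by 1.14 ± 0.13 (adjusted p = 1.1e-04), and the fifth member tested, Bgn, was at -0.17 (adjusted p = 0.064). Human OGN was added as protein, so the Ogn counts report the transcript of the mouse cells.

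Among 47 collagens and structural matrix genes, 5 rose (10.6%) and 9 fell (19.1%), with a median change of -0.05. Tnc (tenascin C), a matrix protein of injured tissue, rose by 0.88 ± 0.10 (adjusted p = 1.0e-04), and its relative Tnxb (tenascin X) fell by 1.12 ± 0.08 (adjusted p = 4.6e-06). Fbln2 (0.67), Lama4 (0.53), Nid1 (0.46) and Col5a3 (0.68) rose, and Nid2 (-0.53), Lama2 (-0.59), Col8a1 (-0.74), Col7a1 (-0.53), Col6a1 (-0.30), Col6a2 (-0.45), Ltbp1 (-0.27) and Ltbp4 (-0.66) fell. Paralogs thus moved in opposite directions in the tenascin, nidogen and laminin alpha families.

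Enzymes that modify collagen were also measured. Of 21 members, 7 rose (33.3%) and 2 fell (9.52%). Lox, the lysyl oxidase that crosslinks collagen and elastin, had 709, 698, 788 and 798 normalized counts with vehicle and 1827, 2063, 2185 and 2185 with OGN, a rise of 1.46 ± 0.06 (adjusted p = 6.0e-08). The prolyl hydroxylase subunit P4ha2 rose by 1.08 ± 0.07 (adjusted p = 1.3e-06) and the lysyl hydroxylase Plod2 by 1.03 ± 0.06 (adjusted p = 8.2e-07). Plod1 (0.69), P4ha1 (0.31), P4hb (0.32) and Plod3 (0.22) rose less, and Loxl3 (-0.63) and Pcolce (-0.22) fell. Of 19 metalloproteinases and inhibitors, 5 rose (26.3%) and 4 fell (21.1%), and 2 fell without mouse 2 or mouse 4. Mmp13 (1.15), Mmp3 (0.62), Adamts4 (0.72), Mmp11 (0.50) and Mmp19 (0.48) rose. Timp3, a matrix-bound inhibitor of metalloproteinases, had 5733, 5527, 5659 and 6478 normalized counts with vehicle and 2648, 2788, 3428 and 3683 with OGN, a change of -0.91 ± 0.07 (adjusted p = 6.5e-06). Adamts7, a protease of cartilage matrix outside the list, had 444, 430.0, 416 and 413 normalized counts with vehicle and 1752, 1969, 2051 and 2049 with OGN, a rise of 2.20 ± 0.07 (adjusted p = 8.9e-09).

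**Figure D3:**
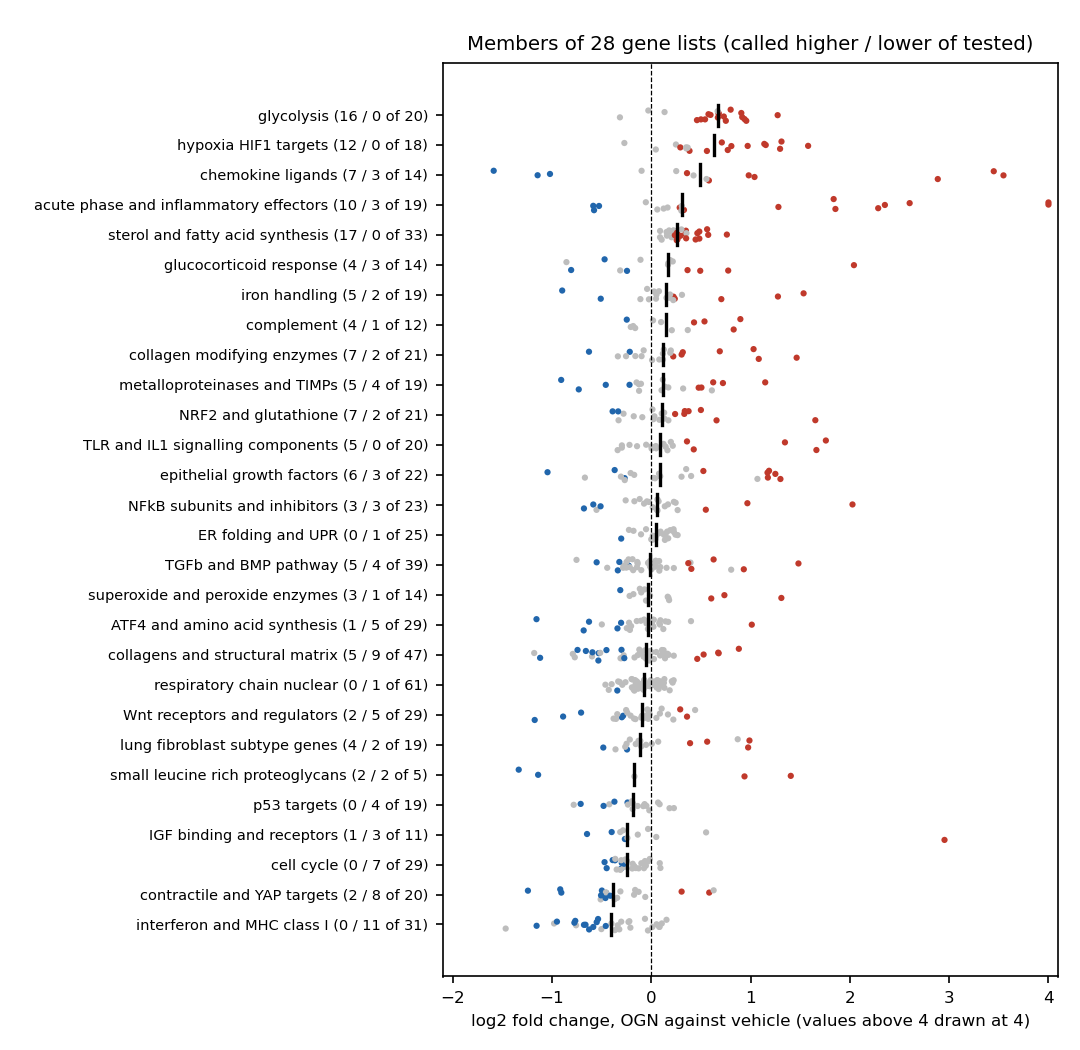
Log2 fold change with OGN (x axis) of each tested member of 28 gene lists (rows, ordered by the list's median, black bar) in CCL206 fibroblasts, with values above 4 drawn at 4 and the median of all genes dashed. Red members were higher and blue members lower at an adjusted p under 0.05, and medians run from glycolysis (16 of 20 raised) at the top to the interferon list (11 of 31 lowered).

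Genes of the contractile apparatus and targets of the mechanosensitive factors YAP and TEAD were lower in part. Of 20 members, 8 fell (40.0%) and 2 rose (10.0%), and the median change was -0.39. Ankrd1, a YAP target, had 619, 671, 563 and 563 normalized counts with vehicle and 238, 231, 257 and 292 with OGN, a change of -1.24 ± 0.11 (adjusted p = 1.3e-05). Tpm1 (-0.45), Cald1 (-0.50), Cnn2 (-0.46) and Myl9 (-0.92), which encode tropomyosin, caldesmon, calponin and a myosin light chain, fell, as did Amotl2 (-0.51), Crim1 (-0.41) and Ccn1 (-0.91). Tagln2 (0.58) and Tpm4 (0.31) rose. Acta2, the actin of myofibroblasts, was at -0.51 (adjusted p = 0.17), and without mouse 3 at -0.87, adjusted p = 0.014. Mylk (-0.74), Fhl2 (-0.89), Vcl (-0.44) and Myh9 (-0.38), chosen after the values were seen, fell too. The TEAD letters GGAATG were found in 12 of 19 promoters of the list (63.2%) on either strand of the 250 bases, against 1156 of 9107 genes tested with an entry (12.7%). The promoters of 3 genes that fell are shown, at chr19:36119962-36120054, minus strand, chr9:102717712-102717771, plus strand and chr9:67049237-67049296, minus strand. Tagln2, which rose, carries the letters as well.
Ankrd1: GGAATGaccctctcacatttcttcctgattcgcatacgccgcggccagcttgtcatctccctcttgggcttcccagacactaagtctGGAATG
Amotl2: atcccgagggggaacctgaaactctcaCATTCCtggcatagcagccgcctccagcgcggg
Tpm1: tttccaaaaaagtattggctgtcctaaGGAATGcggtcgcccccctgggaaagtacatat

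Some growth-responsive genes fell by very different amounts among mice. Egr3 had 1365, 1168, 447 and 544 normalized counts with vehicle and 294, 306, 226 and 341 with OGN, a change of -1.44 ± 0.20 (adjusted p = 6.2e-04). Errfi1, a feedback inhibitor of the EGF receptor, had 4917, 4666, 2662 and 2896 normalized counts with vehicle and 1401, 1453, 1735 and 1976 with OGN, a change of -1.16 ± 0.18 (adjusted p = 0.0015), and Egr1 had 6469, 5956, 1996 and 1903 normalized counts with vehicle and 1749.6, 2140.1, 807 and 2134 with OGN, a change of -1.14 ± 0.24 (adjusted p = 0.01). With vehicle, the cultures of mice 1 and 2 held more of these transcripts than those of mice 3 and 4, and with OGN this gap was smaller or gone for Egr3 and Errfi1. In Egr1 mouse 4 did not fall. Ccn1 had 2309, 2186, 587 and 691 normalized counts with vehicle and 791, 776, 457 and 618 with OGN, with the same gap. Cxcl1 showed the gap in both groups, with 951, 1135, 443 and 548 normalized counts with vehicle and 2517, 2522, 684 and 1052 with OGN. Fos (-0.40, adjusted p = 0.32) and Dusp6 (0.26, 0.27) did not pass the test. Egr1, Errfi1, Fos and Dusp6 were chosen after their values were seen, and no label separates mice 1 and 2 from mice 3 and 4.

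**Figure D4:**
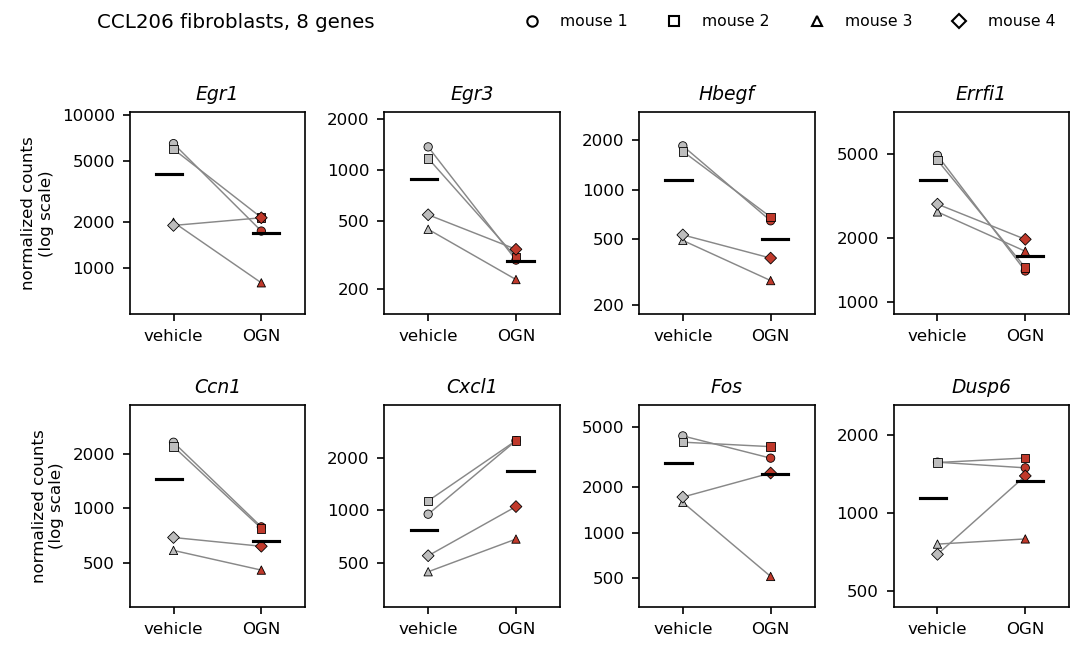
Normalized counts (y axes, log scale) of 8 genes, the chemokine Cxcl1 among them, in the CCL206 libraries with vehicle (grey) and OGN (red). Lines join the cultures of 1 mouse and black bars are group means. With vehicle, mice 1 (circles) and 2 (squares) lie above mice 3 (triangles) and 4 (diamonds) in all 8 genes. Egr1, Errfi1, Fos and Dusp6 were chosen after their values were seen, so the gap is shown for these 8 genes only.

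Glycolysis was the list with the highest share of raised genes. Of 20 members, 16 rose and none fell by edgeR (80.0% against 6.51% of all genes), with a median change of 0.67. The path was raised from uptake to lactate. Slc2a1, the glucose transporter GLUT1, had 1754, 1818, 1687 and 1655 normalized counts with vehicle and 4033, 4225, 4219 and 4211 with OGN, a rise of 1.27 ± 0.06 (adjusted p = 1.2e-07). The hexokinases Hk1 (0.58) and Hk2 (0.46), Gpi1 (0.67), the phosphofructokinases Pfkl (0.94) and Pfkp (0.68), Aldoa (0.50), Tpi1 (0.75), Gapdh (0.73), Pgk1 (0.91), Pgam1 (0.80), Eno1 (0.60), Eno2 (0.54) and Pkm (0.68) rose. Ldha, which makes lactate from pyruvate, had 7579.9, 7689, 7829.5 and 7365 normalized counts with vehicle and 14623, 14005, 15932 and 14607 with OGN, a rise of 0.96 ± 0.05 (adjusted p = 4.9e-07). Pdk1, which keeps pyruvate out of the mitochondrial cycle, rose by 0.92 ± 0.07 (adjusted p = 4.1e-06). The 4 members that did not pass the test were Pfkm (0.13), Pfkfb3 (-0.32), Pfkfb4 (-0.03) and Slc16a3 (0.67). The count was 16 whichever mouse was left out and between 15 and 16 over all alternatives. The 61 nuclear genes of the respiratory chain had a median change of -0.07, with none raised by edgeR and 1 lowered (1.64%, Ndufa4, -0.34). Without mouse 1, 8 were lowered, and without mouse 2, 3 or 4 none by edgeR.

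Targets of the hypoxia-inducible factor HIF-1 rose alongside. Of 18 members, 12 rose and none fell by edgeR (66.7%), with a median change of 0.64. Bnip3, a mitophagy receptor, had 1046, 1020.5, 1061 and 1106 normalized counts with vehicle and 2431, 2804, 2485 and 2698 with OGN, a rise of 1.30 ± 0.07 (adjusted p = 2.2e-07), and Fam162a rose by 1.31 ± 0.06 (adjusted p = 1.9e-07). The oxygen sensors Egln1 (0.97) and Egln3 (0.56), which mark HIF for degradation, rose, as did Ero1a (1.15), Ak4 (1.14), Ankrd37 (1.58), Higd1a (0.81), Mxi1 (0.77), Hilpda (0.71), Vldlr (0.38) and Kdm3a (0.29). Hif1a itself, chosen after its values were seen, had 2730.0, 2631, 2295 and 2321 normalized counts with vehicle and 4065, 4560.1, 3585 and 4130.1 with OGN, a rise of 0.71 ± 0.06 (adjusted p = 2.2e-05). The oxygen tension of the cultures is not given in the labels.

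The core letters ACGTG of the HIF motif were found in 12 of 16 promoters of the list (75.0%) and 10 of 20 (50%) of the glycolysis list, against 2330 of 9107 genes tested with an entry (25.6%), on either strand of the 250 bases. Among the raised members with an entry, 9 of 12 (75.0%) of the HIF-1 list and 7 of 16 (43.8%) of the glycolysis list held them. Of all raised genes with an entry, 159 of 578 (27.5%) did. The letters ACGTG also lie within CACGTG, which other factors such as MYC read. Windows are shown for Ldha (chr7:46845659-46845774, plus strand), Slc2a1 (chr4:119108681-119108740, plus strand), Bnip3 (chr7:138909582-138909641, minus strand) and Fam162a (chr16:36071611-36071670, minus strand), which all rose.
Ldha: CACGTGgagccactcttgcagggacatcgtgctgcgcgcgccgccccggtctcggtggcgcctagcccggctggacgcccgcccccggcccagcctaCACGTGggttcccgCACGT
Slc2a1: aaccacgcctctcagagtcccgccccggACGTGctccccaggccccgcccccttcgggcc
Bnip3: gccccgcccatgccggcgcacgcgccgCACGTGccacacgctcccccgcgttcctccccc
Fam162a: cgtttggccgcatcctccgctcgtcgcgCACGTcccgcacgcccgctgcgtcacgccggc

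Sterol and fatty acid synthesis moved by small amounts in one direction. All 33 members had a change above 0, 17 rose (51.5%), and the median change was 0.26. Nsdhl (0.46), Pmvk (0.76) and Tm7sf2 (0.57) were among those with the smallest p. Without mouse 2, 4 members rose, and without mouse 4, 8 rose.

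Defence against oxidants and iron handling rose in part. Slc7a11, which imports cystine for glutathione synthesis, had 306, 232, 244 and 243 normalized counts with vehicle and 873, 866, 826 and 660.3 with OGN, a rise of 1.65 ± 0.09 (adjusted p = 4.9e-07). Its partner chain Slc3a2 was at 0.09 ± 0.06 (adjusted p = 0.4). Slc7a11 was 4.54 times as high in the vehicle-treated Epcam+ fraction. Of 21 genes of the NRF2 and glutathione list, 7 rose (33.3%, and 4 without mouse 4) and 2 fell (9.52%), with Gstp1 (0.66) and Gclc (0.50) among the higher and Ephx1 (-0.39) and Gstm1 (-0.33) among the lower. Sod2, the mitochondrial superoxide dismutase and an NF-kB target, had 791, 819, 855 and 779.6 normalized counts with vehicle and 2088, 2041, 1859.7 and 2070.3 with OGN, a rise of 1.31 ± 0.07 (adjusted p = 3.2e-07). Of 14 superoxide and peroxide enzymes, Prdx5 (0.74) and the extracellular Sod3 (0.60) rose too, which made 3 higher (21.4%). Gpx8 (-0.31) fell (7.14%, close to the 5.21% of all genes), but not when any 1 mouse was left out. Of 19 iron genes, 5 rose (26.3%, and 3 without mouse 2 or mouse 4) and 2 fell (10.5%). Cp (ceruloplasmin), a ferroxidase, had 11586, 11478, 11987 and 13279 normalized counts with vehicle and 29015, 30581, 27534 and 29754 with OGN, a rise of 1.28 ± 0.06 (adjusted p = 8.7e-08). The importer Slc11a2 (0.71) and Trf (transferrin, 1.53) rose, whereas the iron exporter Slc40a1 (ferroportin) fell by 0.90 ± 0.12 (adjusted p = 3.3e-04), and its companion ferroxidase Heph fell by 0.51 ± 0.13 (adjusted p = 0.024). Trf was 52.1 times as high in the vehicle-treated Epcam+ fraction. Scaled as for Wnt7b, that level came to 273% to 335% of its CCL206 level with vehicle and 172% to 348% with OGN. The part of residual epithelial RNA in the rise of Trf was not tested.

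Most stress and growth lists moved little or downward, while the glucocorticoid list moved in both directions. Of 29 genes of the ATF4 and amino acid list, 1 rose (3.45%), namely Mthfd1l (1.01). A further 5 fell (17.2%, and 1 without mouse 2), among them Chac1 (-1.16) and Ddit3 (-0.63). Of 25 genes of protein folding in the endoplasmic reticulum, none rose and 1 fell by edgeR (4.0%, Herpud1, -0.30). Other settings gave up to 5 higher. Of 29 cell cycle genes, 7 fell (24.1%) and none rose by edgeR, with a median change of -0.24. Without mouse 2, 3 of them fell, and without mouse 4, 4 fell. Ccnd1 (cyclin D1) fell by 0.45 ± 0.07 (adjusted p = 0.001), Top2a fell by 0.47 ± 0.07 (adjusted p = 0.0011) and Mki67 fell by 0.31 ± 0.07 (adjusted p = 0.012). The fibroblasts had been treated with mitomycin C, and Top2a and Mki67 were 2.09 and 3.42 times as high in the vehicle-treated Epcam+ fraction. Of 19 p53 targets, 4 fell (21.1%, and 1 without mouse 3), among them Pmaip1 (-0.71). Cdkn1a (p21) had 4471, 4942, 4158 and 4164 normalized counts with vehicle and 3918, 3794, 4274 and 4792 with OGN and a change of -0.08 ± 0.09 (adjusted p = 0.59). In the glucocorticoid list 4 of 14 rose (28.6%, and 1 without mouse 4) and 3 fell (21.4%, and 1 without mouse 2). Hsd11b1, which regenerates active glucocorticoid, had 52.9, 51.3, 84.9 and 70.4 normalized counts with vehicle and 227, 317, 297 and 237 with OGN, a rise of 2.04 ± 0.16 (adjusted p = 7.1e-06), while the receptor's target Fkbp5 fell by 0.81 ± 0.09 (adjusted p = 1.1e-04).

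Markers of fibroblast subtypes changed in part. Of 19 tested, 4 rose (21.1%) and 2 fell (10.5%). Pi16, a marker of adventitial fibroblasts, rose by 0.99 ± 0.09 (adjusted p = 1.8e-05). Plin2 (0.56), which coats lipid droplets, and Prrx1 (0.39), a mesenchymal transcription factor, rose. Pdgfra (-0.24) and Ly6c1 (-0.48) fell. Pdpn rose by 0.98 ± 0.22 (adjusted p = 0.016) and was 13.3 times as high in the vehicle-treated Epcam+ fraction. The fibroblast signature of the study had a mean log2 CPM of 8.49 ± 0.0559 with vehicle and 8.52 ± 0.0599 with OGN (SD, n = 4, exact permutation test without the pairing by mouse, two-sided, p = 0.486). For the AT2 signature the means were 6.99 ± 0.496 and 7.15 ± 0.403 (p = 0.657 by the same exact test). The smallest p that 4 libraries against 4 allow without pairing is 0.0286. The mean of the fibroblast signature joined opposite changes. Of its 9 genes tested, 2 rose (22.2%, Dcn and Lum) and 3 fell (33.3%, with Col6a1 and Col6a2 among them).

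Epithelial markers in the CCL206 fraction were higher with OGN in part. All 15 had a change above 0, with a median of 0.47. Of these, 5 passed the test (Krt7, Krt18, Krt19, Cldn4 and Ehf), which is 33.3% against 6.51% of all genes. The largest changes were those of the tight junction protein Cldn4 (1.32) and the epithelial transcription factor Ehf (1.29), and the groups overlapped in all 5. Epcam itself had 140.1, 109, 114 and 63.1 normalized counts with vehicle and 177, 109.6, 209 and 97.6 with OGN, and its change was 0.47 ± 0.17 (adjusted p = 0.094). Of the AT2 signature Sftpd (0.88), Sftpa1 (0.85), Ctsh (0.47) and Lamp3 (0.40) were higher (40.0%) and Sftpc (-0.49) was lower (10.0%). Of 7 AT1 markers tested 1 was higher and 1 lower (14.3% each). Of 8 basal and airway markers 1 was lower (12.5%), and neither of 2 mesothelial markers passed the test. Relative to the Epcam+ fraction of the same culture, the Epcam transcript stood at 2.66% to 5.44% with vehicle and 2.95% to 8.71% with OGN, and the median epithelial marker at 3.78% to 8.48% and 6.22% to 13.0%. The median gene of the AT2 signature stood higher, at 12.2% to 32.2% with vehicle and 17.6% to 34.9% with OGN. More epithelial cells and more RNA per epithelial cell cannot be told apart in bulk libraries. Of the 761 higher genes, 87 (11.4%) were over 4 times as high in vehicle-treated Epcam+ cells as in CCL206 cells, against 6.03% of all genes tested and 6 (0.985%) of the 609 lower genes. Without all such genes, 674 genes were higher and 603 lower.

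To see where the fibroblast response differed from that of the epithelial cells in the same cultures, the difference of the OGN effects was tested over the 16 libraries with OGN or vehicle. In Epcam+ cells 116 of 11469 genes were higher and 69 lower (1.01% and 0.602%, together 1.61%). The difference itself passed the test for 79 of 11800 genes (0.669%), with the higher change in fibroblasts for 68 (0.576%) and in Epcam+ cells for 11 (0.0932%). The total was 19 without mouse 2 or mouse 3, 34 without mouse 4 and 40 without mouse in the model. A total of 137 genes were differentially expressed in both populations, which is 10.0% of those in fibroblasts and 74.1% of those in Epcam+ cells. Of these, 134 had the same direction. The fibroblast markers summed to 2239 to 3111 CPM in the vehicle-treated Epcam+ fraction and 2052 to 2588 CPM in the OGN-treated one. Fibroblast transcripts were thus present there, and their part in the shared genes was not tested.

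Some inflammatory genes rose more in fibroblasts than in Epcam+ cells, among them 4 of the 19 acute phase members (Lcn2, Hp, Il33 and Ptges), while 1 other member had the lower change in fibroblasts. Lcn2 rose by 5.15 in fibroblasts and by 3.61 in Epcam+ cells, a difference of 1.54 ± 0.19, adjusted p = 1.0e-03. Il33 rose by 1.85 and 0.58, a difference of 1.28 ± 0.11, adjusted p = 1.6e-05. Ptges (1.30 ± 0.11, adjusted p = 1.6e-05), Slpi (0.65 ± 0.12, adjusted p = 0.022), Hp (1.72 ± 0.20, adjusted p = 4.1e-04), Sod2 (0.73 ± 0.11, adjusted p = 0.0047) and Slc2a1 (0.70 ± 0.10, adjusted p = 0.0045) also had larger changes in fibroblasts. For Saa3 the difference was 2.13 ± 0.58, adjusted p = 0.15 and for Cxcl5 0.22 ± 0.20, adjusted p = 0.86, neither of which passed the test. The fibroblast growth factors Hgf (-0.17 ± 0.16, adjusted p = 0.87) and Fgf7 (0.05 ± 0.21, adjusted p = 0.99) did not differ past the threshold either. Their vehicle level in the Epcam+ fraction was 0.116 and 0.197 times that in fibroblasts. The part of residual fibroblast RNA in their Epcam+ changes was not tested.

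The largest tested differences included genes of other kinds. Slc7a2, a transporter of arginine and other cationic amino acids, had 198, 154, 180.1 and 166 normalized counts with vehicle and 622, 761, 645 and 628 with OGN in CCL206 cells and rose by 1.92 ± 0.11 (adjusted p = 4.9e-07), whereas its change in Epcam+ cells was -0.09 (adjusted p = 0.87). The difference was 2.01 ± 0.16, adjusted p = 1.6e-05. Sorbs2, a cytoskeletal adaptor, differed by 1.77 ± 0.15, adjusted p = 1.6e-05. Epas1 (HIF-2 alpha) rose in fibroblasts (0.78, adjusted p = 2.5e-04) and fell in Epcam+ cells (-0.50, adjusted p = 0.0036), a difference of 1.28 ± 0.12, adjusted p = 2.7e-05. In the other direction, Ccn1 fell in fibroblasts (-0.91) and rose in Epcam+ cells (0.58), a difference of -1.48 ± 0.27, adjusted p = 0.019. Ly6c1 (-1.12 ± 0.17, adjusted p = 0.0048), Plau (-1.17 ± 0.21, adjusted p = 0.017), which encodes urokinase, Rnd3 (-0.99 ± 0.17, adjusted p = 0.015) and Adamts9 (-1.02 ± 0.19, adjusted p = 0.019) likewise had the lower change in fibroblasts. Without mouse 2, no gene passed the test with the lower change in fibroblasts, these genes included. Without mouse 4, 4 genes did. Of the 68 genes with the higher change in fibroblasts, 52 had a higher vehicle level in Epcam+ cells and 28 were over 4 times as high there; 50.2% of all genes in this test had a higher level in Epcam+ cells. Sorbs2 and Epas1 were 4.06 and 13.1 times as high there, and the part of residual epithelial RNA in these differences was not tested.

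**Figure D5:**
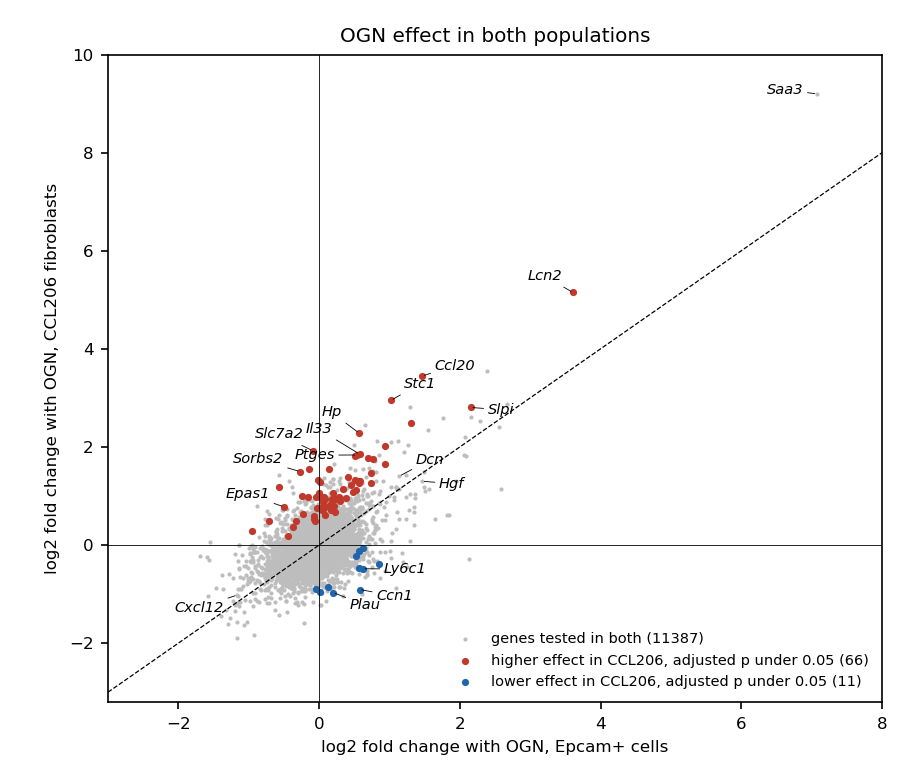
Log2 fold change with OGN in Epcam+ cells (x axis) against CCL206 fibroblasts (y axis) for genes tested in both; on the dashed line both are equal. The 66 red genes had a higher and the 11 blue genes a lower change in fibroblasts at an adjusted p of the difference under 0.05, and both lie away from the line.

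Other strongly changed genes belonged to no list. Among the lower genes with the smallest p were Ablim1 (-1.10), an actin-binding protein, Ak5 (-1.33), an adenylate kinase, Rcan2 (-1.09), a calcineurin regulator, Galnt15 (-1.48), Irag1 (-1.25), a target of cGMP kinase, and Cav1 (-0.71), the coat protein of caveolae. In each of them all OGN libraries lay below all vehicle libraries. Scara5, a ferritin receptor, had 169, 227, 171 and 207 normalized counts with vehicle and 56.8, 76.7, 66.5 and 51.1 with OGN, a change of -1.61 ± 0.16 (adjusted p = 4.2e-05). Npy4r fell by 1.58 ± 0.14 (adjusted p = 2.3e-05).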

How the data were processed

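Per the labels and the study's methods, RNA of resorted Epcam+ and CCL206 cells was sequenced, and the authors deposited 1 table of raw read counts per gene for 32 libraries. The submitters' processing notes name Trimmomatic 0.30 and DESeq2 1.34.0. The labels give GRCm39 and the methods GRCm38, and the aligner, the counting program and its strand setting are not given in the sources used here. The 11818 genes in the table were all counted in each of the 32 libraries, so a gene silent in 1 library is not covered.

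Counts were analyzed as deposited with edgeR 4.0.16 in R 4.3.3: TMM scaling, filterByExpr, and the quasi-likelihood test on the 8 CCL206 libraries with OGN or vehicle, modelled by mouse and treatment. Adjusted p-values are Benjamini-Hochberg over all genes tested, with a threshold of 0.05. Standard errors are the log2 fold change divided by the root of F. Normalized counts are counts scaled to a common effective library size. The difference between populations was tested on 16 libraries with mouse and treatment nested in population. Both fractions of a culture entered as separate libraries, without a term for the culture they share. Libraries are paired because same-numbered cultures came from the same mouse. The deviations of same-mouse libraries from their group means correlated at 0.05 to 0.30 over 4 pairs, and those of different mice at -0.34 to 0.22. No 2 libraries of a group agreed within sampling noise. Counting intervals cover counting error only.

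The 28 gene lists and the cell type markers were written from general knowledge, and the comparison, its members and the lists were chosen with earlier results of these data known. Genes are named as those of smallest p (12 per direction), the largest change (6 per direction, mean of at least 50 normalized counts), differentially expressed list members, all chemokine and growth factor members, the genes the study names, the 5 of smallest p per direction of the difference, and markers. Genes said to be chosen after their values were seen fall outside this rule, as do the list members named without passing the test (Acta2, Bgn, Pfkm, Pfkfb3, Pfkfb4 and Slc16a3). Alternatives were DESeq2 1.42.0, RLE size factors, other filters, no mouse in the model, more fibroblast libraries in the fit, and leaving out each mouse. Promoter letters were searched in RefSeq sequences (GRCm38.p6) matched by symbol, for 9107 of 11685 genes. A few genes are not reported here.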

Additional observations from a re-analysis of the deposited data

Results flagged for a closer look

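Of the 36 genes named whose OGN effect differed between CCL206 and Epcam+ cells at an adjusted p under 0.05 by edgeR's test of the difference, 31 had the higher change in fibroblasts. Values are the difference of the log2 fold changes, CCL206 minus Epcam+. Among the inflammatory genes these were Lcn2 (1.54), Hp (1.72), Il33 (1.28), Ptges (1.30), Slpi (0.65), Ccl20 (1.97), Cd14 (1.00), Tnip3 (1.08) and Tgfb1 (0.70). Among glycolysis, glycogen and hypoxia genes these were Slc2a1 (0.70), Gpi1 (0.45), Pgam1 (0.59), Pgm1 (0.57), Gys1 (0.80), Gbe1 (0.83), Slc16a1 (0.77), Egln1 (0.69), Fam162a (0.76), Higd1a (0.74) and Epas1 (1.28). Among genes of redox and metal handling these were Sod2 (0.73), Slc7a11 (0.71) and Cp (0.54). Among the matrix enzymes these were Lox (0.73) and P4ha2 (0.60). The others were Slc7a2 (2.01), Stc1 (1.94), Sorbs2 (1.77), Ehf (1.26), Pdpn (1.03) and Tagln2 (0.65). The lower change in fibroblasts was that of Adamts9 (-1.02), Ccn1 (-1.48), Ly6c1 (-1.12), Plau (-1.17) and Rnd3 (-0.99). No gene passed the test with the lower change in fibroblasts when mouse 2 was left out. The median epithelial marker in the CCL206 fraction stood at 3.78% to 8.48% of its Epcam+ level with vehicle and 6.22% to 13.0% with OGN. For the median gene of the AT2 signature this was 12.2% to 32.2% with vehicle and 17.6% to 34.9% with OGN. The part of residual epithelial RNA in the differences was not tested.

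In 24 of 510 groups of 4 libraries, 1 group per named gene and treatment, 1 library stood apart from the other 3 by Dixon's criterion, and chance alone gives about 5%. Values are normalized counts, with the range of the other 3 libraries in brackets. In the vehicle library of mouse 1 this was Bsg at 5061 (5539 to 5624), Cavin1 at 3351 (4043 to 4124), Ces1g at 499.6 (374 to 395), Prdx5 at 1198 (1470.5 to 1497), Slc7a11 at 306 (232 to 244) and Tnxb at 1029.5 (954 to 965). In the OGN library of mouse 3 this was Chac1 at 62.5 (78.9 to 79.9), Col6a2 at 830.5 (734 to 746) and Tpi1 at 9940.0 (10551 to 10634). In the vehicle library of mouse 3 this was Csf1 at 3772 (4449 to 4464), Stc1 at 15.4 (27.0 to 28.3) and Wnt5a at 633 (717 to 729). In the OGN library of mouse 4 this was Gstm1 at 1010.1 (891 to 911) and Mthfd1l at 1655 (1450.4 to 1476). In the vehicle library of mouse 4 this was Igf1r at 1685 (1419 to 1461), Loxl3 at 1035 (1154 to 1163), Saa3 at 11.0 (0.98 to 2.57), Steap4 at 86.8 (47.5 to 49.7) and Vldlr at 7321 (6618 to 6683). In the vehicle library of mouse 2 this was Myd88 at 264 (342 to 353), Nfkb1 at 1005 (930.4 to 942) and Sod3 at 383 (313 to 320.3). In the OGN library of mouse 1 this was Slc2a1 at 4033 (4211 to 4225). In the OGN library of mouse 2 this was Slc7a2 at 761 (622 to 645).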

How the results depend on the processing

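Of 1370 differentially expressed genes, 1129 were shared with DESeq2, 1360 with RLE size factors, 1367 with no filter on low counts and 1342 with a minimum of 10 counts per library, and none of the shared genes had the opposite direction under any alternative run. With the 4 libraries treated with soluble factors added to the fit, 1770 genes passed. With all 16 fibroblast libraries in the fit, the count was 533 (316 higher and 217 lower); the cause was not tested. Requiring a change of more than 2-fold left 160 genes (111 higher and 49 lower). Without 1 mouse the total ranged from 724 to 1308, with 417 to 709 higher and 307 to 599 lower. Without the pairing by mouse in the model, 1076 genes passed (618 higher and 458 lower), of which 1039 were shared.

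The difference between populations was less stable. Without the replicate block 40 genes passed, with 32 higher in CCL206 cells, and with DESeq2 139 passed, with 116 higher and 23 lower. Without 1 mouse the total ranged from 19 to 60, with 14 to 51 higher and 0 to 9 lower. The other settings gave 84, 79 and 77 genes. The cause was not tested.

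Of the 255 genes named, 222 were differentially expressed, and no direction reversed among calls. The call was lost for 11 with DESeq2, 34 without the block, and 57 with 16 libraries in the fit. It was lost without at least 1 of the mice for 44 genes, namely Adamts4, Adamts9, Ccl2, Ccn1, Col5a3, Col6a1, Col7a1, Ctsh, Ddit3, Egln3, Egr1, Gbp7, Gclc, Gpx8, Heph, Herpud1, Hilpda, Igf1r, Kdm3a, Kitl, Krt18, Lamp3, Lbp, Ltbp1, Masp1, Mki67, Myd88, Myl9, Ndufa4, Nrg1, Oasl2, Pappa, Pcolce, Pdgfra, Pdpn, Plod3, Psmb9, Sftpc, Slc39a14, Smad3, Tlr4, Tpm4, Trim30a and Wnt7b. A call was gained without mouse 1 for Areg, Bgn, Cavin1 and Ereg, without mouse 3 for Acta2 and Fgf1, and with the soluble factor libraries in the fit for Bgn, Ccl8 and Vegfd. The signatures moved by less than the spread between libraries in all alternatives run. Depth limits low genes most: the lowest library held 4560414 counts, and Saa3 had 17 counts over the vehicle libraries. Log2 fold changes correlated weakly with gene GC content (Spearman's correlation 0.18 over 11490 genes, a description across genes), and their part in the results was not tested.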

Other observations

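Several groups of genes outside the lists also changed in the CCL206 fraction; they were chosen after the values were seen, and none was tested as a group. Members of the carboxylesterase family, which hydrolyze lipid and drug esters, fell: Ces1d (-1.32), Ces1f (-1.09), Ces1g (-1.05), Ces2e (-1.42) and Ces2g (-1.09), each past the threshold. The genes belong to multigene families, and how reads shared between paralogs were counted is not given in the sources used here. Cavin2 (-0.71) of the caveolar coat fell with Cav1, while Cavin1 was at -0.10 (adjusted p = 0.43 by edgeR) and, without mouse 1, at -0.21, adjusted p = 0.042.

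Genes of glycogen synthesis rose beside glycolysis. Gys1 (glycogen synthase) rose by 1.14, the branching enzyme Gbe1 by 0.88 and Pgm1 by 0.95. The lactate transporter Slc16a1 rose by 1.23 and its chaperone Bsg by 0.63. Arg2, the mitochondrial arginase, rose by 1.56 beside the arginine transporter Slc7a2, and the cholesterol exporter Abca1 rose by 1.06. Arg2 was 8.54 times as high in the vehicle-treated Epcam+ fraction, and the part of residual epithelial RNA in its rise was not tested. For all genes of this paragraph the change was past the threshold of edgeR's quasi-likelihood test.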
